A study of Arabidopsis with 12 samples.

Results

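The size of the response to abscisic acid (ABA) was compared between aph-1 mutant and wild-type (WT) Arabidopsis seedlings, gene by gene. For each gene, the log2 ratio of the ABA-treated to the untreated level was taken in aph-1, and the same log2 ratio in WT was subtracted from it, after 0.1 was added to every level. Levels are in FPKM, fragments counted per kilobase of transcript and scaled to a common sequencing depth. A gene was described if its level reached at least 1 FPKM in any group, which held for 20276 of the 33559 genes in the table and left out 13283. At this limit, AT4G23070 was just inside with a highest value of 1.00 FPKM and a difference of 0.93, and AT4G14370 was just outside with 0.999 FPKM and a difference of -0.11.

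The 4 groups were aph-1 seedlings treated with ABA, untreated aph-1 seedlings, WT (Col-0) seedlings treated with ABA and untreated WT seedlings, with 3 libraries in each. All were whole seedlings of 14 days, and the dose of ABA was 50 micromole for 6 h. The aph-1 line carries a T-DNA insertion in the promoter region of APH, and the groups hold this 1 mutant allele. The table gives 1 value per gene and group, into which the 3 libraries had been combined, so that no spread between seedlings or libraries was known, no difference could be tested, and every value below is a description of 4 pooled values. The read depth behind a value is unknown.

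APH (AT3G44620), the gene carrying the insertion, codes for a low molecular weight protein tyrosine phosphatase. Its level was 86.9 FPKM with ABA and 83.6 FPKM without in aph-1, against 99.0 FPKM with ABA and 95.9 FPKM without in WT. The 4 values were close, and the log2 response differed by 0.01 between the genotypes, or by -0.07 with groups scaled to the same sum of FPKM. A level over the whole gene cannot tell a normal transcript from one fused to the insertion, so it does not check the genotype. The label of whole seedling was checked with 6 root markers and 6 leaf markers. All 12 were above 1 FPKM in every group, from SHV2, a root hair gene, to RBCS1A, a small subunit of Rubisco.

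ABA is the hormone that plants make under drought, salt and cold and during seed maturation. It is bound by PYR/PYL receptors, which then inhibit the clade A PP2C phosphatases and so release the SnRK2 kinases. These kinases phosphorylate transcription factors of the ABF and ABI5 type, which switch on genes for late embryogenesis abundant (LEA) proteins, dehydrins, lipid transfer proteins and the PP2Cs themselves, while growth and photosynthesis genes are switched off.

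Most genes differed little between the genotypes in their response to ABA. The difference in log2 response had a median of 0.04 over the 20276 genes, its 5th and 95th percentiles were -0.44 and 0.59, and 89.7% of the genes lay within 0.5 of 0. A difference of at least 1, which is a 2-fold gap between the responses, was found in 347 genes (1.71% of those described), and one of at most -1 in 89 genes (0.439%). In aph-1, 2434 genes (12.0%) had a log2 ratio of at least 1 with ABA and 2192 (10.8%) of at most -1, against 2385 (11.8%) and 2639 (13.0%) in WT. A gene was called induced or repressed if its log2 response reached 1 in that direction in at least 1 genotype. On this basis, 165 genes (0.814%) had a stronger induction in aph-1, 36 (0.178%) a weaker induction, 41 (0.202%) a stronger repression and 151 (0.745%) a weaker repression. Over all genes described, 55.1% had a difference above 0 and 44.9% below 0, and when the groups were scaled to the same sum of FPKM 43.6% were above 0 and the median was -0.05. A further 34 genes (0.168%) were past 1 without such a response, and 9 (0.0444%) responded in opposite directions.

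The difference was largest for the genes that ABA induced most. Among 130 genes whose mean log2 response over both genotypes was above 5, the median difference was 1.15, and 73 of them (56.2%) were at 1 or more while 1 was at -1 or less. For 134 genes with a mean response of 4 to 5 the median was 0.41 and 14.2% were at 1 or more, and for 7650 genes with a mean response of 0 to 1 the median was -0.04 and 0.405% were at 1 or more. On the other side, 157 genes with a mean response of -4 to -3 had a median of 0.28, and 13.4% of them were at 1 or more. The 70 genes with a mean response below -4 did not continue this, with a median of 0.09, 12.9% at 1 or more and 8.57% at -1 or less. The mean response and the difference are built from the same 4 values, so this pattern is a description.

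**Figure D1:**
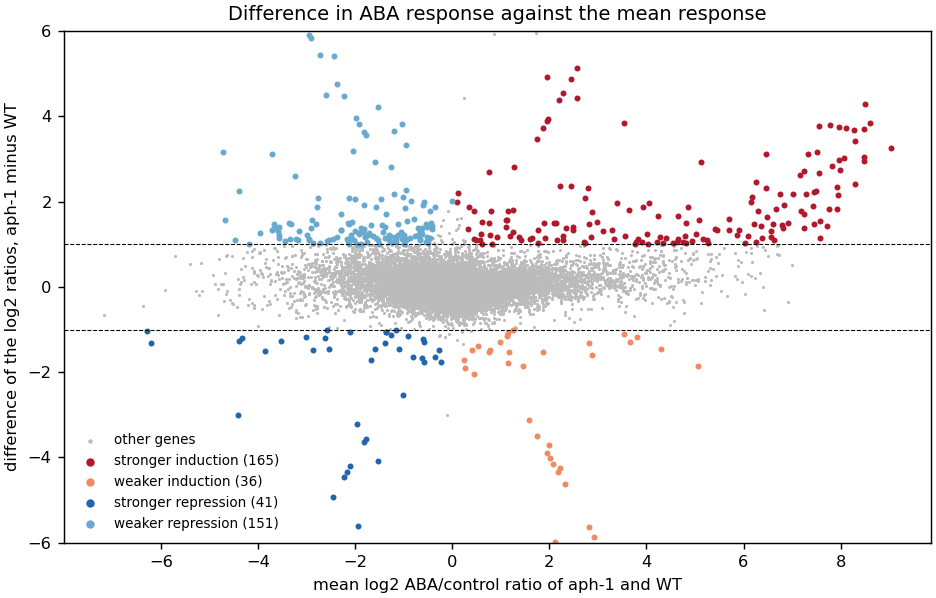
Difference of the log2 ABA/control ratios, aph-1 minus WT (vertical axis), against the mean of the ratios in both genotypes (horizontal axis), with 1 point per gene and dashed lines at 1 and -1. Points of the stronger induction class climb at the right, where the mean response is above 5 and the median difference is 1.15; the 16 genes beyond 6 in either direction are not drawn.

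By construction, the difference equals the log2 aph-1/WT ratio with ABA minus the same ratio without ABA. The difference was assigned to the condition whose ratio was at least 2 times the other in size, and to both conditions otherwise. The 4 classes split in different ways. Of the 165 genes with a stronger induction, 120 (72.7%) differed mainly without ABA, 20 mainly with ABA and 25 in both. In each of the 120 genes the untreated aph-1 level was the lower value. Of the 151 genes with a weaker repression, 60 differed mainly with ABA, where aph-1 was higher in all 60, 36 (23.8%) mainly without ABA, where aph-1 was lower in all 36, and 55 in both. Of the 41 genes with a stronger repression, 20 were lower in aph-1 with ABA and 13 (31.7%) were higher in aph-1 without it. Of the 36 genes with a weaker induction, 21 were lower in aph-1 with ABA and 7 (19.4%) were higher in aph-1 without it. The direction within a condition follows from how the classes are defined. For a gene above 0 in 1 group only, that group also fixes the condition. There were 9 such genes with a stronger induction, 9 with a weaker induction, 7 with a stronger repression and 14 with a weaker repression. They count as differing with ABA in the induction classes and without ABA in the repression classes.

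**Figure D2:**
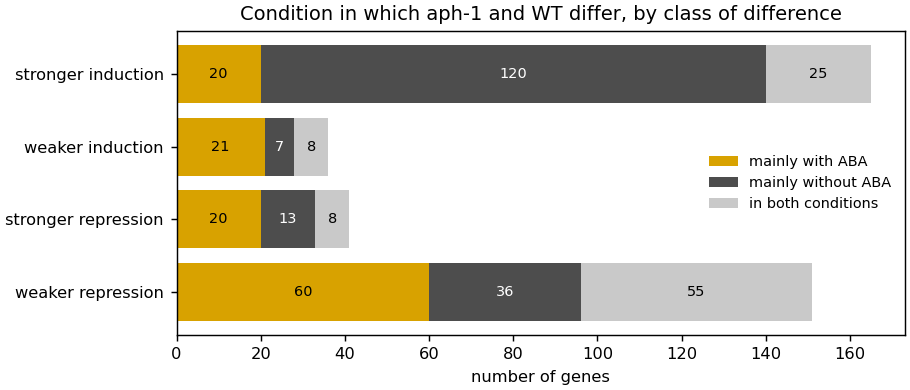
Number of genes in each class of difference (rows) whose aph-1 and WT levels differed mainly with ABA, mainly without ABA or in both conditions (bar segments, labelled with their counts). Stronger induction is the class in which the untreated condition holds most genes, 120 of 165, while weaker repression has 60 genes differing mainly with ABA.

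The contrasts between genotypes and between treatments share groups, so their counts are not independent. Without ABA, 46 genes (0.227%) had an aph-1/WT ratio of at least 2-fold and 218 (1.08%) were at least 2-fold lower in aph-1. With ABA, 106 genes (0.523%) were at least 2-fold higher in aph-1 and 72 (0.355%) at least 2-fold lower. Over all genes described, the median log2 aph-1/WT ratio was -0.01 with ABA and -0.05 without. In whole seedlings, fewer cells of a type and less RNA per cell cannot be told apart.

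Among genes above 0 in all groups that reached 5 FPKM, the 2 largest gains in induction were those of LEA genes. LEA4-5 (AT5G06760), a group 4 LEA protein, had 1598 FPKM with ABA and 0.893 FPKM without in aph-1, against 1776 FPKM with ABA and 21.5 FPKM without in WT. LEA7 (AT1G52690) had 4882 FPKM with ABA and 3.21 FPKM without in aph-1, against 5772 FPKM and 56.6 FPKM in WT. The ABA-treated levels lay close together in both genes, with log2 aph-1/WT ratios of -0.15 and -0.24, whereas the untreated levels were apart by -4.44 and -4.10. The resulting differences in response were 4.29 for LEA4-5 and 3.86 for LEA7.

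AT3G02480, described as a LEA family protein, was the most abundant of them, with 14691 FPKM with ABA and 14.4 FPKM without in aph-1, against 17525 FPKM and 230.1 FPKM in WT, a difference of 3.74. LEA18 (AT2G35300) had 139.3 FPKM with ABA and 0.101 FPKM without in aph-1, against 129.8 FPKM and 2.47 FPKM in WT, a difference of 3.78. AT3G17520 had 1094 FPKM and 0.956 FPKM in aph-1, against 1221 FPKM and 12.5 FPKM in WT, a difference of 3.42. In each of these, the genotypes were close with ABA, and without it the aph-1 value was the lower. Which of the untreated values is unusual cannot be read from them. Of 31 non-dehydrin LEA genes described, 10 had a difference of at least 1, beside 1.71% of all genes, and 0 of -1 or less, beside 0.439%, and 28 of 31 were above 0, beside 55.1%. Their median difference was 0.53, beside 0.04 over all genes, with a median log2 aph-1/WT ratio of -0.05 with ABA and -0.39 without.

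The tandem cold- and drought-regulated pairs COR15A/COR15B, KIN1/KIN2 and RD29A/RD29B code for hydrophilic stress proteins, of which COR15A and COR15B act in the chloroplast stroma. COR15A (AT2G42540) had 5980 FPKM with ABA and 10.8 FPKM without in aph-1, against 6426 FPKM and 104.7 FPKM in WT. KIN1 (AT5G15960) had 6425 FPKM and 24.4 FPKM in aph-1, against 7596 FPKM and 253.1 FPKM in WT. RD29B (listed as LTI65, AT5G52300) had 1315 FPKM and 0.708 FPKM in aph-1, against 1586 FPKM and 9.19 FPKM in WT. All 3 were thus within a log2 ratio of -0.27 of WT with ABA and more than 3 log2 units below WT without it, and their responses differed by 3.16, 3.13 and 3.25. The tandem partners differed less, by 1.51 for COR15B, 1.12 for KIN2 and 0.79 for RD29A (listed as LTI78). KIN2 (AT5G15970), for example, had 11089 FPKM with ABA and 300.5 FPKM without in aph-1, against 11039 FPKM and 649.3 FPKM in WT. The partners of a pair are related in sequence, and the handling of reads that fit both is not stated. With 5 of its 6 genes at 1 or more and a median difference of 2.32, this was the group with the highest median of the 55 examined. COR15B, KIN2 and RD29A were named after their values were seen.

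Dehydrins are LEA proteins of group 2 that bind membranes and ions as cells dry out. RAB18 (AT5G66400), a common marker of ABA response, had 5766 FPKM with ABA and 5.67 FPKM without in aph-1, against 7335 FPKM and 56.6 FPKM in WT, a difference of 2.95. XERO2 (listed as LTI30, AT3G50970) had 3420 FPKM and 35.6 FPKM in aph-1, against 3453 FPKM and 91.4 FPKM in WT, a difference of 1.34. All 10 dehydrins described were above 0, also with groups scaled to the same sum, and these 2 were at 1 or more, beside 55.1% and 1.71% of all genes. The median difference of the group was 0.55, with median log2 aph-1/WT ratios of -0.17 with ABA and -0.66 without.

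Small heat shock proteins are chaperones that hold unfolded proteins in solution. ATHSP22.0 (AT4G10250), of the endomembrane system, had 357.0 FPKM with ABA and 0.220 FPKM without in aph-1, against 409.9 FPKM and 4.65 FPKM in WT, a difference of 3.69. HSP17.4 (AT3G46230) had 308.3 FPKM and 1.59 FPKM in aph-1, against 350.0 FPKM and 5.13 FPKM in WT, a difference of 1.44. In the mitochondrial HSP23.6-MITO (AT4G25200) the values were low, with 5.81 FPKM and 0.102 FPKM in aph-1, against 4.05 FPKM and 0.425 FPKM in WT, a difference of 1.89. Of the 16 genes of this group, 5 were at 1 or more, beside 1.71% of all genes, and 0 at -1 or less, beside 0.439%, with a median of 0.59.

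Negative regulators of the ABA pathway showed the same pattern in part. The clade A PP2Cs HAI1, HAI2 and HAI3 inactivate SnRK2 kinases and are themselves induced by ABA. HAI3 (AT2G29380) had 105.9 FPKM with ABA and 0.0465 FPKM without in aph-1, against 126.0 FPKM and 0.824 FPKM in WT, a difference of 2.41. HAI1 (AT5G59220) had 276.7 FPKM and 1.03 FPKM in aph-1, against 315.9 FPKM and 3.26 FPKM in WT, a difference of 1.38. HAI2 (AT1G07430) had 115.2 FPKM and 0.307 FPKM in aph-1, against 147.3 FPKM and 1.05 FPKM in WT, a difference of 1.14. These are the 3 of 9 clade A genes at 1 or more, beside 1.71% of all genes. Their untreated levels were at or below 3.26 FPKM in both genotypes. In HAI3 the untreated aph-1 value was below the 0.1 FPKM added to every level. With untreated levels this low, the 3 differences depend on that added amount. ABI1 (AT4G26080), named after its values were seen, was expressed without ABA in both genotypes, with 491.8 FPKM with ABA and 43.9 FPKM without in aph-1, against 539.8 FPKM and 47.5 FPKM in WT, a difference of -0.02. The median of the 9 PP2Cs was 0.21.

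Other genes, some of them members of other lists, were also in the class. TSPO (AT2G47770), a membrane protein that is transiently made under stress, had 560.4 FPKM with ABA and 0.333 FPKM without in aph-1, against 602.6 FPKM and 5.94 FPKM in WT, a difference of 3.70. RD20 (AT2G33380), a caleosin of lipid droplets, had 1761 FPKM and 4.83 FPKM in aph-1, against 1685 FPKM and 29.2 FPKM in WT, a difference of 2.64. SAG29 (AT5G13170), a sugar transporter also called SWEET15, had 1319 FPKM and 1.90 FPKM in aph-1, against 1309 FPKM and 13.2 FPKM in WT, a difference of 2.74. In these 3 the ABA-treated levels were within 0.10 of each other on the log2 scale, as in TSPO, where the ratio was -0.10. SAG13 (AT2G29350), a senescence marker, was also higher in aph-1 with ABA, with 99.2 FPKM and 0.931 FPKM in aph-1, against 59.8 FPKM and 4.63 FPKM in WT, a difference of 2.92. The lipid transfer proteins LTP3 (AT5G59320) and LTP4 (AT5G59310), which carry lipids in the cell wall, were lower in aph-1 in both conditions. LTP3 had 1739 FPKM and 6.31 FPKM in aph-1, against 2357 FPKM and 29.7 FPKM in WT, and its difference was 1.78, beside 1.56 for LTP4. AT3G03341 and AT4G33467, which carry no description in the table, differed by 3.79 and 3.76, again with untreated aph-1 values under 1 FPKM. Over all genes, 1.71% were at 1 or more and 44.9% were below 0. Of 13 chlorophyll breakdown and senescence genes, 2 were at 1 or more and 5 were below 0 (median 0.18). Of 10 RD and ERD genes, 1 was at 1 or more and 4 were below 0 (median 0.06, or -0.02 with groups scaled to the same sum). Of 6 lipid transfer proteins, 2 were at 1 or more and 1 was below 0 (median 0.31).

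Among transcription factors, the class held 2 of 65 NAC factors and 3 of 89 MYB factors, beside 0.814% of all genes. In all, 5 NAC and 6 MYB factors were at 1 or more, beside 1.71% of all genes, and 2 of each family of these had a weaker repression. NAC019 (AT1G52890), a NAC factor of drought and jasmonate responses, had 152.6 FPKM with ABA and 1.74 FPKM without in aph-1, against 174.7 FPKM and 5.24 FPKM in WT, a difference of 1.34. MYB121 (AT3G30210) had 28.5 FPKM and 0.0408 FPKM in aph-1, against 30.1 FPKM and 0.325 FPKM in WT, a difference of 1.51. The untreated aph-1 value of MYB121 was below the 0.1 FPKM added to every level, so its difference depends on that added amount. ERF71 (AT2G47520), a factor of the hypoxia response, had 38.4 FPKM and 1.05 FPKM in aph-1, against 43.6 FPKM and 4.04 FPKM in WT, a difference of 1.67. These factors too had near-equal ABA-treated levels and lower untreated levels in aph-1. The median difference was 0.05 for the NAC factors, or -0.03 with groups scaled to the same sum, and 0.11 for the MYB factors. ERF71 was the 1 gene at 1 or more of 12 hypoxia and fermentation genes, of which 5 were below 0. Their median was 0.06, or -0.03 with groups scaled to the same sum.

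**Figure D3:**
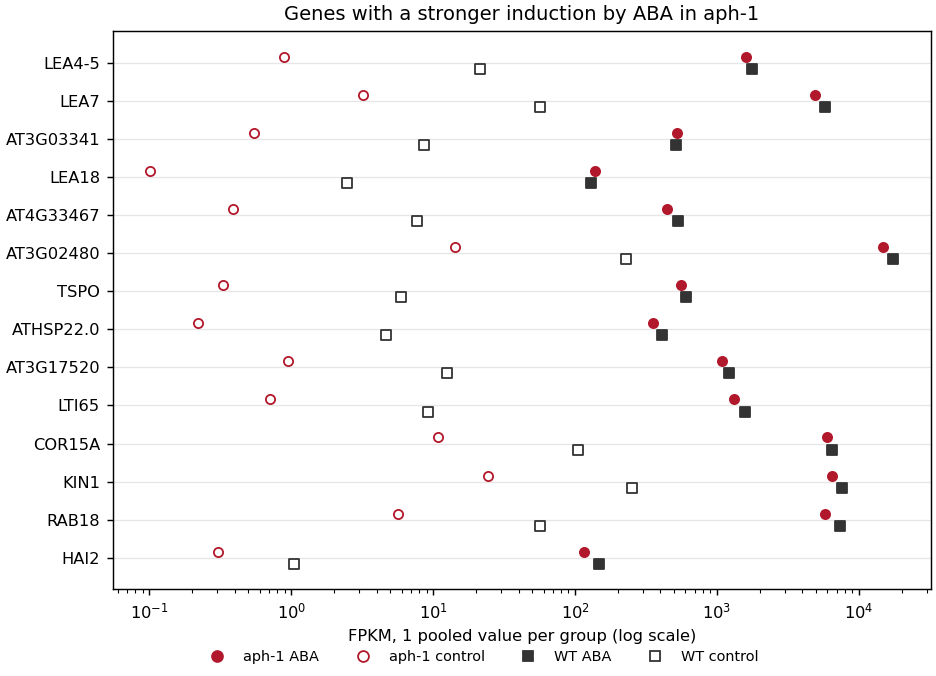
Levels of 14 genes with a stronger induction in aph-1 (rows) in FPKM on a log axis, with 1 pooled value per group and no error bars. The filled symbols of ABA-treated aph-1 and WT nearly coincide, whereas the open symbol of untreated aph-1 lies left of that of untreated WT in every row, by 24.1-fold in LEA4-5 and 3.41-fold in HAI2.

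How low the untreated levels were can be read as a share of the ABA-treated level of the same genotype. Over the 120 genes whose stronger induction lay mainly in the untreated condition, the untreated level was 0.415% of the ABA-treated level in aph-1 (median, quartiles 0.108% and 2.19%) and 2.46% in WT (quartiles 1.26% and 9.06%). Over the 130 genes with a mean log2 response above 5, whichever their class, it was 0.368% in aph-1 (quartiles 0.111% and 1.05%) and 1.48% in WT (quartiles 1.01% and 2.17%). The untreated WT level of these 130 genes exceeded that of aph-1 by 0.975% of the ABA-treated WT level (median, quartiles 0.659% and 1.39%). The class thus rests largely on low untreated levels that were higher in WT than in aph-1, and their source was not tested. When 0.5% of the ABA-treated WT level was taken off each untreated WT level, 125 of the 165 genes remained in the class. When 1% was taken off, an alternative added after the data were seen, 90 remained, among them 18 of the 73 with a mean response above 5 and 5 of the 10 named by size. The 1% is close to the median excess of 0.975% in the 130 genes, so a smaller class follows largely from that choice. These counts therefore cannot tell where the excess comes from. The weaker induction class had 39 genes with 0.5% and 62 with 1% taken off, in place of 36, and the weaker repression class had 150 in place of 151 in both cases.

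A smaller part of the stronger induction came from the ABA-treated level. VSP2 (AT5G24770), a vegetative storage protein and jasmonate marker, had 275.4 FPKM with ABA and 9.34 FPKM without in aph-1, against 190.2 FPKM and 14.5 FPKM in WT, so that both conditions contributed to its difference of 1.16. The following genes were named after their values were seen. NATA1 (AT2G39030), an ornithine acetyltransferase induced by jasmonate, had 62.5 FPKM and 5.64 FPKM in aph-1, against 31.8 FPKM and 6.47 FPKM in WT, a difference of 1.17. AT1G10585, a bHLH protein, had 94.8 FPKM and 6.97 FPKM in aph-1, against 50.3 FPKM and 12.6 FPKM in WT, a difference of 1.76. JRG21 (AT3G55970), a jasmonate-regulated gene, had 4.32 FPKM and 1.09 FPKM in aph-1, against 1.89 FPKM and 1.21 FPKM in WT, a difference of 1.28. ABA-treated aph-1 had the highest value of the 4 groups in each of these 4 genes. Of the jasmonate synthesis and VSP genes described, 1 of 11 was at 1 or more and 10 were above 0, beside 1.71% and 55.1% of all genes, with a median of 0.31. Their median log2 aph-1/WT ratio was 0.13 with ABA and -0.27 without, so the list as a whole differed more without ABA. Of the JAZ repressors of jasmonate signalling, 1 of 11 was at 1 or more and 11 were above 0, or 9 with groups scaled to the same sum, with a median of 0.41. For the JAZ repressors too the median ratio was further from 0 without ABA, at -0.24 against 0.13 with ABA.

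Genes with a weaker repression were more often set apart by the ABA-treated level, which was higher in aph-1. CML30 (AT2G15680), a calmodulin-like calcium sensor, had 1.03 FPKM with ABA and 9.90 FPKM without in aph-1, against 0.0536 FPKM and 12.2 FPKM in WT, a difference of 3.17. PCC1 (AT3G22231), a pathogen- and clock-controlled gene, had 13.0 FPKM and 20.4 FPKM in aph-1, against 4.56 FPKM and 26.5 FPKM in WT, a difference of 1.87. AT5G01881, with no description, had 3.72 FPKM and 17.0 FPKM in aph-1, against 0.395 FPKM and 19.1 FPKM in WT, a difference of 3.12. The untreated levels were alike in the 3 genes, within a log2 ratio of -0.38, and ABA lowered them further in WT. AT3G14340, also with no description, was not lower with ABA in aph-1 at all, with 14.9 FPKM and 9.03 FPKM, against 1.81 FPKM and 11.6 FPKM in WT, a difference of 3.33.

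Iron deficiency regulators were among them. BHLH38, BHLH39, BHLH100 and BHLH101 are the subgroup Ib bHLH factors that partner with FIT to switch on iron uptake. BHLH100 (AT2G41240) had 17.4 FPKM with ABA and 34.1 FPKM without in aph-1, against 3.67 FPKM and 30.7 FPKM in WT, a difference of 2.06. bHLH39 (AT3G56980) had 7.72 FPKM and 12.7 FPKM in aph-1, against 2.92 FPKM and 13.5 FPKM in WT, a difference of 1.45. BHLH101 (AT5G04150) had 4.52 FPKM and 6.82 FPKM in aph-1, against 1.86 FPKM and 6.52 FPKM in WT, a difference of 1.17. In these 3 the untreated levels nearly matched and the ABA-treated level was higher in aph-1. bHLH38 (AT3G56970) had 25.5 FPKM and 14.6 FPKM in aph-1, against 12.3 FPKM and 18.4 FPKM in WT, a difference of 1.38 without a 2-fold response in either genotype. NAS2 (AT5G56080), which makes the metal chelator nicotianamine, was the fifth of the 18 genes described to reach 1, with 6.94 FPKM and 2.62 FPKM in aph-1, against 4.0 FPKM and 4.47 FPKM in WT, a difference of 1.53. Smaller differences were found for the iron uptake genes IRT1 and FRO2. The iron transporter IRT1 (AT4G19690) had 0.113 FPKM with ABA and 7.38 FPKM without in aph-1, against 0.109 FPKM and 10.5 FPKM in WT, a difference of 0.53, and the ferric reductase FRO2 (AT1G01580) differed by 0.35. Of the 18 genes 3 had a weaker repression, 5 were at 1 or more beside 1.71% of all genes, and 4 were below 0, the lowest at -0.42. The median of the 18 genes was 0.52, with median log2 aph-1/WT ratios of 0.28 with ABA and -0.07 without. BHLH101, bHLH38, IRT1 and FRO2 were named after their values were seen.

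Some root hair and cell wall genes had smaller differences of the same sign. RHS13 (AT4G02270), a root hair cell wall protein, had 66.4 FPKM with ABA and 132.6 FPKM without in aph-1, against 49.2 FPKM and 199.0 FPKM in WT, a difference of 1.02. XTH13 (AT5G57540), a xyloglucan-remodelling enzyme, had 12.7 FPKM and 25.2 FPKM in aph-1, against 8.12 FPKM and 35.0 FPKM in WT, a difference of 1.11. In both genes aph-1 was higher with ABA and lower without it. RHS18 (AT5G22410) and RSL4 (AT1G27740), a factor of root hair growth, differed mainly without ABA, by 0.93 and 0.62. Of 19 root hair genes 15 were above 0 and 4 below, beside 55.1% of all genes above 0, with a median of 0.44 and 1 gene at 1 or more. Of 51 expansin and xyloglucan endotransglucosylase genes, 38 were above 0, or 32 with groups scaled to the same sum, and 2 at 1 or more, with a median of 0.16. Of 56 class III peroxidases, which crosslink cell walls, 51 were above 0 and 4 at 1 or more, beside 55.1% and 1.71% of all genes, with a median of 0.32. SWEET16 (AT3G16690), a vacuolar sugar transporter, had 1.69 FPKM and 13.5 FPKM in aph-1, against 0.911 FPKM and 21.5 FPKM in WT, a difference of 1.49.

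The thalianol genes, which lie side by side and make a root triterpene, were named after their values were seen. THAS1 (AT5G48010), the thalianol synthase, had 5.77 FPKM with ABA and 48.6 FPKM without in aph-1, against 2.53 FPKM and 54.9 FPKM in WT, a difference of 1.34. CYP705A5 (AT5G47990), a thalianol-modifying P450, had 20.9 FPKM and 98.2 FPKM in aph-1, against 8.36 FPKM and 102.2 FPKM in WT, a difference of 1.37. CYP708A2 (AT5G48000) and the acyltransferase gene AT5G47980 differed by 1.1 and 1.38. The 4 genes were repressed in both genotypes and less so in aph-1, with the gap at the ABA-treated level.

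Not every gene of the weaker repression class differed in its response alone. AT3G58550, of the lipid-transfer superfamily, had 70.4 FPKM with ABA and 47.0 FPKM without in aph-1, against 0.596 FPKM and 1.62 FPKM in WT. AT2G01422, named after its values were seen and with no description, had 79.8 FPKM and 90.0 FPKM in aph-1, against 0.373 FPKM and 1.13 FPKM in WT. Both were higher in aph-1 in both conditions, by log2 ratios of 6.66 and 4.78 for AT3G58550 and of 7.40 and 6.20 for AT2G01422, and their differences of 1.89 and 1.20 rest on WT values near or under 1 FPKM.

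Of the 41 genes with a stronger repression, the 20 set apart mainly with ABA were lower in aph-1. PYL6 (AT2G40330), an ABA receptor, had 0.320 FPKM with ABA and 46.9 FPKM without in aph-1, against 0.742 FPKM and 46.0 FPKM in WT, a difference of -1.03. CRK30 (AT4G11460), a cysteine-rich receptor-like kinase, had 0.0136 FPKM and 13.2 FPKM in aph-1, against 0.151 FPKM and 11.7 FPKM in WT, a difference of -1.32. BGLU28 (AT2G44460), a beta-glucosidase, had 10.7 FPKM and 40.0 FPKM in aph-1, against 24.9 FPKM and 44.9 FPKM in WT, a difference of -1.05. Untreated levels again nearly matched in these 3, and in PYL6 and CRK30 the gap is between values under 1 FPKM. The other 8 of 9 receptors were between -1 and 1, and the group had a median of 0.21. PYL7 (AT4G01026), the receptor with the highest difference, had 14.4 FPKM with ABA and 12.5 FPKM without in aph-1, against 12.6 FPKM and 16.2 FPKM in WT, a difference of 0.57.

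SAUR genes, small auxin-induced genes of cell expansion, differed in both directions. AT4G34810 had 0.376 FPKM with ABA and 11.5 FPKM without in aph-1, against 1.32 FPKM and 12.1 FPKM in WT, a difference of -1.50. SAUR23 (AT5G18060) had 0.442 FPKM and 6.47 FPKM in aph-1, against 0.894 FPKM and 5.28 FPKM in WT, a difference of -1.16. ABA-treated levels were thus low in both genotypes and lower in aph-1. Over 60 SAUR genes described, 44 were repressed in at least 1 genotype, 7 were at 1 or more and 3 at -1 or less, beside 1.71% and 0.439% of all genes, and the median was 0.18. The 7 were all of the weaker repression class, and of the 3, 2 were of the stronger repression class and 1 of the weaker induction class. Over all genes, weaker repression was also the larger of the 2 repression classes, with 151 genes (0.745%) against 41 (0.202%). Among the 7, AT1G76190 had 0.558 FPKM with ABA and 1.68 FPKM without in aph-1, against 0.256 FPKM and 3.05 FPKM in WT, a difference of 1.71. SAUR genes form clusters of close copies, so that shared reads may be split between them.

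**Figure D4:**
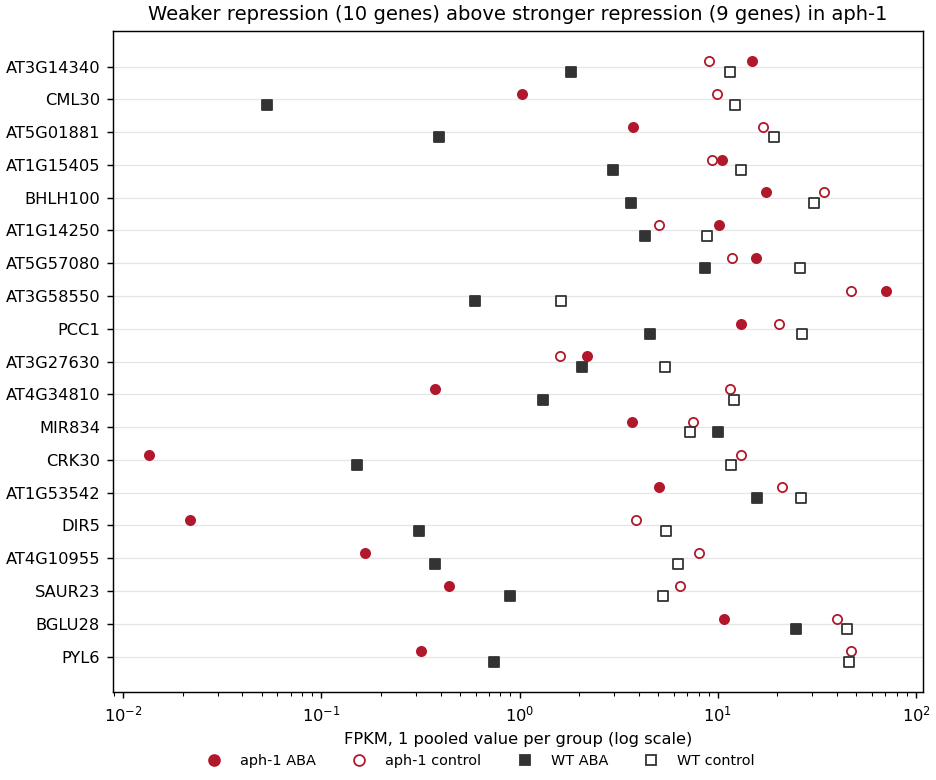
Levels of the 10 named genes with a weaker repression in aph-1 (upper rows) and the 9 with a stronger repression (lower rows) in FPKM on a log axis, with 1 pooled value per group and no error bars. In BHLH100 the filled aph-1 symbol lies right of the filled WT symbol at 17.4 against 3.67 FPKM, whereas in PYL6 it lies left of it at 0.320 against 0.742 FPKM, with untreated levels close in both genes.

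Weaker induction was rare, and most members had low levels. AT5G45428, an upstream open reading frame peptide, had 10.4 FPKM with ABA and 8.64 FPKM without in aph-1, against 24.9 FPKM and 5.98 FPKM in WT, a difference of -1.77. The upstream peptide AT5G09672 had 0.192 FPKM and 0.190 FPKM in aph-1, against 5.06 FPKM and 0.190 FPKM in WT, a difference of -4.15. AT1G19070, an F-box protein, had 3.95 FPKM and 3.98 FPKM in aph-1, against 6.15 FPKM and 2.10 FPKM in WT, a difference of -1.52. Upstream open reading frames overlap longer transcripts, and their reads cannot be told apart from those of the main gene. Only 6 of the 36 genes were above 0 in all groups and reached 5 FPKM, beside 16323 of all 20276 genes. Protein-coding genes made up 24 of the 36 (66.7%), beside 97.2% of all genes. Of the 36 genes, 2 (5.56%) belonged to any of the 55 groups of genes examined, beside 6.84% of all genes.

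Low values weighed unequally on the 4 classes. A group value of 0 was found in 28 of 165 genes with a stronger induction, 18 of 36 with a weaker induction, 13 of 41 with a stronger repression and 32 of 151 with a weaker repression, beside 140 of 20276 genes in all. Highest values under 5 FPKM were found in 56 genes with a stronger induction, 26 with a weaker induction, 30 with a stronger repression and 87 with a weaker repression, beside 3921 of 20276. For genes that reached 1 to 2 FPKM at most, 6.37% were at 1 or more and 3.0% at -1 or less, against 2.17% and 0 of 2624 genes at 100 FPKM or more. The most highly expressed genes thus differed in 1 direction, and 52 of these 57 belonged to the stronger induction class and 5 to the weaker repression class. The very largest differences came from short or organellar genes listed at 0 in some groups. MIR472 (AT1G12294), a microRNA precursor, was listed at 0 except for 15.0 FPKM in ABA-treated WT, and the chloroplast gene ATCG01020 was listed at 0 except for 46.2 FPKM in ABA-treated aph-1. No fold change is given for MIR472 and ATCG01020, which were named after their values were seen.

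For other genes of the ABA pathway no difference past 1 was found, which is near what 2.15% of all genes past 1 gives in groups of this size. This held for 10 SnRK2 kinases (median 0.17), 9 ABF, ABI and AFP regulators (median 0.08, or -0.01 with groups scaled to the same sum) and 13 ABA synthesis and breakdown genes (median 0.06, or just below 0 so scaled). It also held for 18 heat shock factors, 5 CBF and DREB2 factors, 7 proline genes, 18 suberin genes and 19 clock genes, with medians between 0.00 and 0.24, or between -0.08 and 0.16 so scaled. AFP3 (AT3G29575), a negative regulator of ABI5, was the gene of its group with the highest difference, 0.62, with 368.8 FPKM with ABA and 14.5 FPKM without in aph-1, against 398.8 FPKM and 24.2 FPKM in WT. CYP707A1 (AT4G19230), which breaks ABA down, had 162.0 FPKM and 3.29 FPKM in aph-1, against 175.2 FPKM and 4.79 FPKM in WT, a difference of 0.41. In both, the untreated aph-1 value was again the lower.

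Of 39 nuclear photosystem and antenna genes, 19 were repressed here. A difference above 0 was found in 34 of the 39, beside 55.1% of all genes, with a median of 0.26. All genes with a highest value of 100 FPKM or more had a median of 0.18 and a 25th percentile of 0.03. Other groups leaned the same way, with 41 of 44 histones and 50 of 57 cytosolic ribosomal protein genes above 0. Of 17 Rubisco and Calvin cycle genes, of which 14 were repressed, 8 were above 0 and 9 below, with a median of -0.08. LHCB3 (AT5G54270), an antenna protein, had 511.2 FPKM with ABA and 1017 FPKM without in aph-1, against 410.2 FPKM and 1207 FPKM in WT, a difference of 0.56. Of 17 aliphatic glucosinolate synthesis genes, 15 were above 0, with a median of 0.37. MAM1 (AT5G23010), which elongates the methionine chain, had 49.0 FPKM and 113.0 FPKM in aph-1, against 27.9 FPKM and 100.8 FPKM in WT, a difference of 0.64. Of 93 NLR immune receptors, 78 were below 0, beside 44.9% of all genes, with a median of -0.26. RPP1 (AT3G44480), a receptor for downy mildew, had 10.4 FPKM and 13.5 FPKM in aph-1, against 11.6 FPKM and 9.99 FPKM in WT, a difference of -0.60. None of the photosystem and antenna, Rubisco and Calvin cycle, glucosinolate or NLR genes of these lists was past 1.

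**Figure D5:**
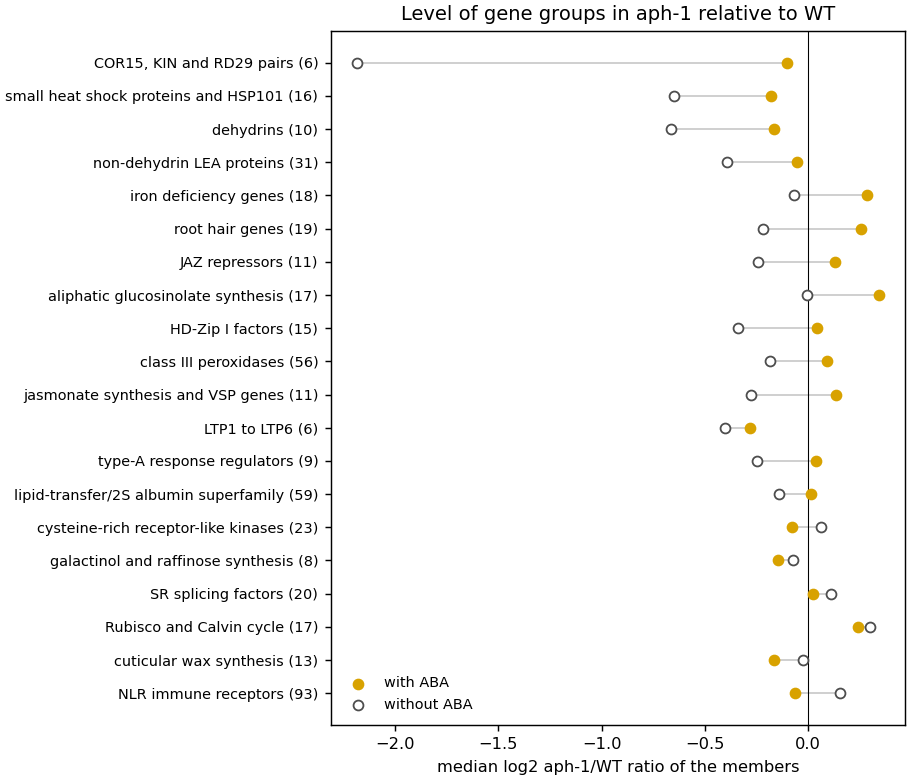
Median log2 aph-1/WT ratio of the members of 20 gene groups with ABA (filled) and without ABA (open), with the number of genes described in parentheses; the 14 groups with the highest and the 6 with the lowest median difference are drawn, leaving out organelle genomes and transposable elements. For the COR15, KIN and RD29 pairs the open symbol lies at -2.19 and the filled one at -0.10, while for the iron deficiency genes it is the filled symbol that lies away from 0, at 0.28.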

How the data were processed

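RNA was taken from whole seedlings of 4 groups with 3 libraries each, and libraries were made with a directional kit. Per the methods of the study, reads were trimmed with Trimmomatic, mapped to TAIR10 with HISAT and counted with htseq-count. No source used here gives the strand setting of the counting or the depth per library. The deposited table holds FPKM values of the authors, 1 per gene and group with the libraries combined. The columns carry no unit: FPKM was inferred from the values and from the label of the table, which names Cuffdiff, a tool that the methods do not mention, and how the libraries were combined is not stated. It also holds the authors' log2 ratios and yes/no calls of changed genes, which were not used.

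Differences were computed with Python 3.11.15, pandas 2.3.3 and numpy 2.4.6 as described above. The settings were a pseudocount of 0.1 FPKM, a minimum of 1 FPKM in any group and a threshold of 1 on the log2 scale. There is no test, error or left-out replicate, because values per library were not analysed here. Gene symbols came from the RefSeq table of TAIR10.1 (32815 of 33559 identifiers matched). Promoter and protein sequences were not used here.

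The members and the 55 gene lists were chosen with earlier results of these data known. Lists were set by identifier or by symbol and description, leaving out members without a matching annotation. Genes were named by this rule: per class, the 10 with the largest difference among genes above 0 in all groups that reached 5 FPKM; APH, RAB18, KIN1, LEA7, COR15A, HAI2 and RD29B; and up to 3 per list with the largest difference. Others are marked as named after their values were seen. Alternatives changed the pseudocount, filter, scaling, centring, thresholds and the untreated WT level.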

Additional observations from a re-analysis of the deposited data

Results flagged for a closer look

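ABA moved 9 genes past 1 on the log2 scale in opposite directions in aph-1 and WT, which is what set them apart. With 1 pooled value per group the difference between the genotypes was not tested. PAO2 (AT2G43020), a polyamine oxidase, was the 1 gene of them that was above 0 in all groups and reached 5 FPKM. It had 4.49 FPKM with ABA and 0.0760 FPKM without in aph-1, against 5.24 FPKM and 12.6 FPKM in WT, a difference of 5.95, with the untreated aph-1 value the lowest of the 4. NRPB12 (AT5G41010), a subunit of RNA polymerase II that every cell uses, had 19.2 FPKM and 9.36 FPKM in aph-1 and was listed at 0 with ABA and at 27.2 FPKM without in WT, a difference of 9.12. AT5G07840, an ankyrin repeat protein, was above 0 in all groups at 1.24 FPKM or less and differed by 4.43.

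In 7 of the 9 genes at least 1 group was listed at 0, so that the difference depends on the pseudocount. Beside NRPB12 these were ATCG00070 (14.75), AT5G65609 (-11.47), AT3G45180 (10.42), ATCG00050 (7.06), ERF14 (AT1G04370, 5.93) and ATMG00650 (-3.0), of which ATCG00070, ATCG00050 and ATMG00650 belong to the organelle genomes.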

How the results depend on the processing

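No paired analysis was possible because the table holds 1 combined value per group, and for the same reason no replicate could be left out. Counts are given in the order stronger induction, weaker induction, stronger repression and weaker repression. The 165, 36, 41 and 151 genes became 69, 17, 12 and 58 with a pseudocount of 1 FPKM. With at least 5 FPKM they became 109, 10, 11 and 64, and with no filter 267, 118, 156 and 291. They became 336, 81, 101 and 470 with a threshold of a 1.5-fold gap in place of 2-fold. With a 3-fold gap they became 78, 21, 18 and 48. With 1% of the ABA-treated WT level taken off the untreated one, stronger induction had 90 genes and weaker induction 62. Equal sums per group, centring, a pseudocount of 0.01 FPKM, genes above 0 only and 0.5% taken off kept each count within 1.5 times. With equal sums, 303 genes were at 1 or more and 103 at -1 or less, 74.6% higher in place of 79.6%; with no filter this was 66.2%.

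The share set apart mainly without ABA, 72.7% for stronger induction, was 80.1% with a pseudocount of 0.01 FPKM, 83.2% for genes above 0 only, 87.2% with at least 5 FPKM, 52.1% with no filter, 63.6% with a ratio of 3 between conditions and 53.3% with 1% taken off. For weaker induction it was 5.88% with a pseudocount of 1 FPKM, 38.5% for genes above 0 only and 43.5% with 1% taken off. For stronger repression it was 66.7%, 11.4% and 9.09% with a pseudocount of 1 FPKM, genes above 0 only and at least 5 FPKM. For weaker repression it was 37.9%, 14.6%, 36.4% and 37.5% with a pseudocount of 1 FPKM, genes above 0 only, no filter and a 3-fold threshold. Of 384 list medians under 7 settings, 25 turned sign, 12 of them with equal sums, none from a median above 0.08 in size. Of 952 values for 238 named genes, 3 turned sign: DIR5 (AT1G64160) had 0.05 in place of -1.27 and HSFA6A (AT5G43840) -0.29 in place of 0.52 with a pseudocount of 1 FPKM, and APH (AT3G44620) -0.07 in place of 0.01 with equal sums. Depth and the spread between libraries, and so the error of any value here, are unknown.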
